A study of Mus musculus with 9 samples.

Results

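Surface antigens of leukocytes and receptors for antibody were followed in the hearts of 14-day-old mice. The members were the genes whose symbol starts with Cd and a digit, Fcgr, Fcer, Clec or Siglec. Cd68, Cd72, Cd74, Cd109, Fcgr3 and Clec7a, which match these names, were set aside. This gave 55 probes for 48 genes, out of 46657 probes on the array and 9796 probes that carry a gene symbol. Siglec genes and Cd79a, Cd4, Cd14 and Cd163 were not analysed here, so the leukocyte types were covered only in part. The values used here were log2 intensities of Illumina Mouse-6 v1.1 bead arrays after background correction and quantile normalization, and levels of different probes cannot be set against each other.

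The hearts came from FVB mice in 3 groups of 3 arrays: K-line, which carries a transgene of a constitutively active mutant of the Na+/H+ exchanger NHE1, N-line, which carries a wild-type NHE1 transgene, and control. All samples are labelled male, and the promoter that drives the transgenes and the number of founder lines are not given in the sources used here. Whether each array stands for a separate animal is not in the labels, so the tests cover only differences among the arrays at hand, and that spread may be technical.

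CD antigens are cell surface proteins catalogued by the antibodies that bind them, and sets of them are used to tell leukocyte types apart. Receptors named Fcgr and Fcer bind the constant part of IgG and IgE. Many Clec genes encode C-type lectin-like receptors, by which macrophages, monocytes and neutrophils sense microbial sugars and cell debris. Some of these receptors act through adaptor proteins that carry an activating tyrosine motif, while Fcgr2b carries an inhibitory motif of its own. The young mouse heart holds resident macrophages, while lymphocytes are fewer.

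Some facts of the arrays bear on all K-line results. One slide holds only K-line, while N-line and control share the other. Against the male label, Xist signal was present in 3 of 3 K-line hearts and in 0 N-line or control hearts, and Kdm5d and Ddx3y were below background in all 3 K-line hearts. No member probe lies on chromosome X or Y (0 and 0). The atrial myosin gene Myl7 had log2 levels of 5.22, 8.44 and 4.90 in K-line, against 13.57, 13.65 and 13.68 in N-line and 13.57, 13.44 and 13.38 in control. Slide cannot be told apart from K-line, and the part of sex and atrial tissue in the members' differences was not tested. Each array detected between 17937 and 19021 probes, and its median probe was read from 35 to 38 beads.

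Detection divided the members into those with signal and those without. A probe counted as detected where its detection p-value was under 0.05. On at least 1 of 9 arrays 30 of the 48 genes were detected, and 21 were detected on all 9. The other 18 genes, with no detected probe on any array, included Cd8b1, the beta chain of the cytotoxic T cell coreceptor, and Cd69, an early activation antigen of lymphocytes. They also included Cd160 and Cd226 of natural killer and T cells, Fcer1a of mast cells and basophils, and Fcer2a, the low-affinity IgE receptor of B cells. Cd177 of neutrophils, Cd44, which binds hyaluronan, and Cd24a belonged to them as well. Log2 values of the 24 undetected member probes spanned 4.39 to 5.01 over all arrays. This says only that these probes were not above background, not that the transcripts were absent. Tested were probes detected on at least 3 arrays, which kept 31 member probes for all 30 detected genes. Cd52 and Clec4d passed this filter only through the K-line arrays, and a probe that enters only through its high group had to differ. Clec5a, detected on 3 K-line, 2 N-line and 0 control arrays, also needed K-line arrays to pass. Its rise is therefore not free of the filter.

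**Figure D1:**
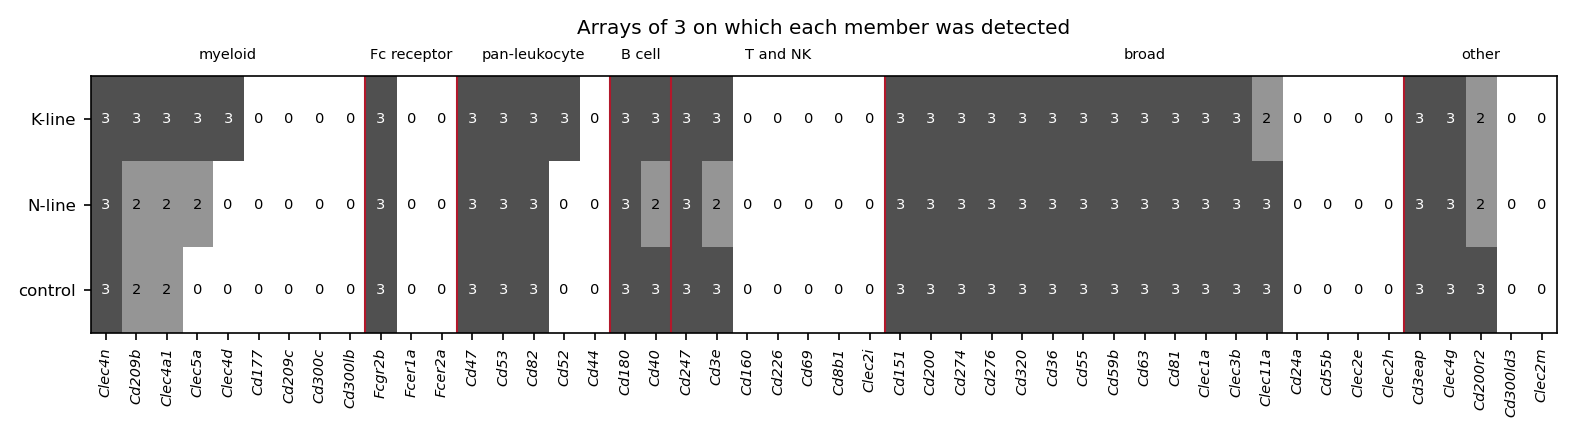
Number of arrays, out of 3 per group, on which the best-detected probe of each of the 48 member genes was detected. Columns are genes grouped by cell type list and rows are K-line, N-line and control. Clec4d and Cd52 read 3 in K-line and 0 in N-line and control, Clec5a reads 3, 2 and 0, and Fcer1a, Fcer2a and 5 of the T and NK cell genes read 0 throughout.

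In K-line hearts the lectin receptors Clec4n, Clec4d, Clec4a1 and Clec5a of the myeloid list, the inhibitory IgG receptor Fcgr2b and the leukocyte antigens Cd53 and Cd52 were higher than in control hearts, with log2 differences of 1.32 to 2.04. No member of the T and NK cell list rose, but only 2 of its 7 genes were tested. In N-line hearts 0 of 30 members passed the test, against 0.929% of all tested probes. Among the 30 tested genes 12 rose in K-line against control and 3 fell, by limma with Benjamini-Hochberg adjustment at 0.05 over all 19692 tested probes. Of all tested probes 12.0% rose and 12.4% fell. Without Cd52 and Clec4d, 10 of 28 rose and 3 fell. Clec5a, which also needed K-line arrays to pass the filter, is among these 10. Of the 21 genes detected on all 9 arrays, 8 rose and 3 fell. The median difference of the 30 genes was 0.13 on the log2 scale, against -0.01 over all tested probes. In whole-heart RNA, more cells of a type and more RNA per cell cannot be told apart.

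Promoters of 5 of the most risen genes are shown because these genes moved together. Both the promoters and the motifs searched were chosen after the values were seen. Sequences are from RefSeq, build GRCm38.p6, and give the 250 bases before the annotated gene start, 5′ to 3′ on the gene's strand. Capitals mark the letters GAGGAA or their reverse complement TTCCTC, the core bound by the myeloid transcription factor PU.1. The windows are chr6:123261857-123262106 and chr6:122921598-122921847 on the plus strand, and chr6:40585806-40586055, chr3:106790150-106790399 and chr1:170976072-170976321 on the minus strand.
Clec4d: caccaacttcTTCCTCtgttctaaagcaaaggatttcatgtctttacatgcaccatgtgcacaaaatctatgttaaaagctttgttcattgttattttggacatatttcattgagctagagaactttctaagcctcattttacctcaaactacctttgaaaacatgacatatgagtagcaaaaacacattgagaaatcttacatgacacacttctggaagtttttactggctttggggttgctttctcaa
Clec4a1: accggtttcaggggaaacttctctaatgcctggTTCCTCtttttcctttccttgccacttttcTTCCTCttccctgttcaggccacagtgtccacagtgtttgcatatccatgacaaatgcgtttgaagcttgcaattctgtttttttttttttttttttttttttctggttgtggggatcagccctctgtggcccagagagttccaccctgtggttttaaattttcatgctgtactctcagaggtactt
Clec5a: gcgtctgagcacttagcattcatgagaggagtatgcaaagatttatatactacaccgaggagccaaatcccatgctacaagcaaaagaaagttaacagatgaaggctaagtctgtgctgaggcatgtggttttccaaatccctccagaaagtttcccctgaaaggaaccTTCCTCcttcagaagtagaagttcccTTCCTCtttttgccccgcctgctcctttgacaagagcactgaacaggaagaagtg
Cd53: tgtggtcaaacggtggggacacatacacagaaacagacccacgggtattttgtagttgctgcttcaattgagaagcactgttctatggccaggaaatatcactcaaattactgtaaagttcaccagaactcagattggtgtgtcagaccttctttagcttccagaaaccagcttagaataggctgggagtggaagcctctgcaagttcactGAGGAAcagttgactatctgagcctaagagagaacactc
Fcgr2b: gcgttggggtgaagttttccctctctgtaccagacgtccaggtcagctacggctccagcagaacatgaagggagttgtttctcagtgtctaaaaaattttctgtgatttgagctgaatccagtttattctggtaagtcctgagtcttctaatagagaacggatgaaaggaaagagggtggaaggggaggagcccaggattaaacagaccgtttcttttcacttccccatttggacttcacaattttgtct
The core was present in 23.3% of all 32851 promoter windows of this length on either strand. Of the 12 risen genes 10 had a window, and 7 of these held it: Clec4d, Clec4a1, Clec5a, Cd53, Cd63, Cd82 and Cd276. Among all 39 member genes with a window, 16 held it. Clec4a1 and Clec5a had 2 matches each. Fcgr2b had 0, which says only that these letters are not in this window. The TATA box letters TATAAA, or their reverse complement TTTATA, were in the window of 1 of the 10, Clec5a, and in 12.4% of all windows. In Clec5a the match is TTTATA, on the other strand. It lies toward the end of the window away from the gene start and is not marked. A match is a description of the sequence and was not tested for binding.

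Of the myeloid list 5 lectin receptors were tested. Clec4n, also called dectin-2, recognises fungal mannans and signals through the Fc receptor gamma chain. Its log2 level was 8.51, 8.90 and 8.66 in K-line, against 6.95, 7.14 and 6.85 in N-line and 6.65, 6.53 and 6.75 in control. All 3 K-line arrays lay above every other array, with a K-line minus control difference of 2.04 (SE 0.12, n = 3 per group, adjusted p 2.37e-06), or 4.13-fold.

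Clec4d, a lectin of macrophages and neutrophils that partners with Mincle, is the next protein-coding gene to Clec4n on chromosome 6, with 0 others between them. It had 6.20, 6.73 and 6.76 in K-line, against 4.73, 4.72 and 4.70 in N-line and 5.05, 4.66 and 4.84 in control. It was detected on no N-line or control array, so the difference of 1.71 (SE 0.15, adjusted p 3.38e-05) is given as at least 2.66-fold. This bound sets the K-line mean against the lowest signal that counted as detected.

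Clec4a1 belongs to the same chromosome 6 group of lectin genes, with 5 protein-coding genes between it and Clec4n. Its levels were 6.27, 6.92 and 6.63 in K-line, against 5.25, 5.07 and 5.35 in N-line and 5.20, 5.11 and 5.33 in control, where it was detected on 2 of 3 arrays. The difference from control was 1.40 (SE 0.15, adjusted p 1.31e-04). Its probe may not tell it apart from close relatives in this gene group.

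Clec5a, a myeloid receptor that pairs with the adaptors Tyrobp and Hcst, is also on chromosome 6. It had 5.98, 6.56 and 6.41 in K-line, against 5.03, 5.34 and 5.12 in N-line and 5.01, 4.98 and 5.01 in control. All control values were below background, and K-line was at least 2.24-fold higher, with a fitted difference of 1.32 (SE 0.14, adjusted p 1.23e-04). The remaining tested gene of the myeloid list was Cd209b, a lectin of marginal zone macrophages in the spleen. It had 5.21, 5.39 and 5.17 in K-line, against 5.02, 5.34 and 5.23 in control, with overlapping groups and a difference of 0.06 (95% interval -0.21 to 0.33). In all, 4 of 5 tested myeloid genes rose, with a median difference of 1.40, and 4 further ones were not detected. Among all tested probes 12.0% rose. Clec4d, counted among the risen myeloid genes, entered the test only through K-line and had to differ. Clec5a, also counted there, needed K-line arrays to pass the filter.

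Fc receptors had 1 tested member. Fcgr2b, the inhibitory receptor for IgG on B cells and myeloid cells, had 7.91, 8.27 and 8.53 in K-line, against 6.45, 6.44 and 6.69 in N-line and 6.94, 6.49 and 6.50 in control. The groups did not overlap, and the difference from control was 1.60 (SE 0.17, adjusted p 1.05e-04), or 3.02-fold. Fcer1a, the IgE-binding chain on mast cells, had 4.74, 4.61 and 4.68 in K-line and 4.54, 4.62 and 4.75 in control, all below background. The mast cell protease gene Cma1, a marker outside the member list, was detected on every array and differed by 0.09 (adjusted p 0.752). The gamma chain Fcer1g and the high-affinity IgG receptor Fcgr1 were not analysed here. Both probes of Fcer2a were below background, with log2 values of 4.52 to 4.75 in K-line and 4.48 to 4.75 in control.

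Antigens shared by most leukocytes rose in all 4 tested cases, against 12.0% of all tested probes. Of these antigens, Cd52 entered the test only through K-line and had to differ. Cd53, a tetraspanin found on nearly all leukocytes, had 8.53, 9.11 and 8.80 in K-line, against 7.02, 7.31 and 7.47 in N-line and 7.35, 7.05 and 7.12 in control. Its difference from control was 1.64 (SE 0.16, adjusted p 6.29e-05). Cd52, a small lipid-anchored glycoprotein of lymphocytes and monocytes, had 6.001, 6.04 and 6.39 in K-line, against 4.77, 4.85 and 4.86 in N-line and 4.82, 4.54 and 4.72 in control. All N-line and control values were below background, so K-line is given as at least 1.99-fold above control (fitted difference 1.45, SE 0.12, adjusted p 2.15e-05). For Cd53 and Cd52 all K-line arrays lay above every N-line and control array.

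Broader members of this list moved less. Cd82, a tetraspanin of leukocytes and other cells, had 8.10, 8.40 and 8.15 in K-line, against 7.85, 7.79 and 7.96 in N-line and 7.61, 7.72 and 7.39 in control. It differed from control by 0.64 (SE 0.12, adjusted p 0.00279). Cd47, the surface signal that restrains phagocytosis and is made by most cells, had 9.58, 9.53 and 9.56 in K-line, against 9.24, 9.35 and 9.26 in N-line and 9.01, 9.06 and 9.20 in control. Its difference was 0.47 (SE 0.09, adjusted p 0.00364). For both genes the N-line arrays lay between the K-line and control arrays with no overlap.

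**Figure D2:**
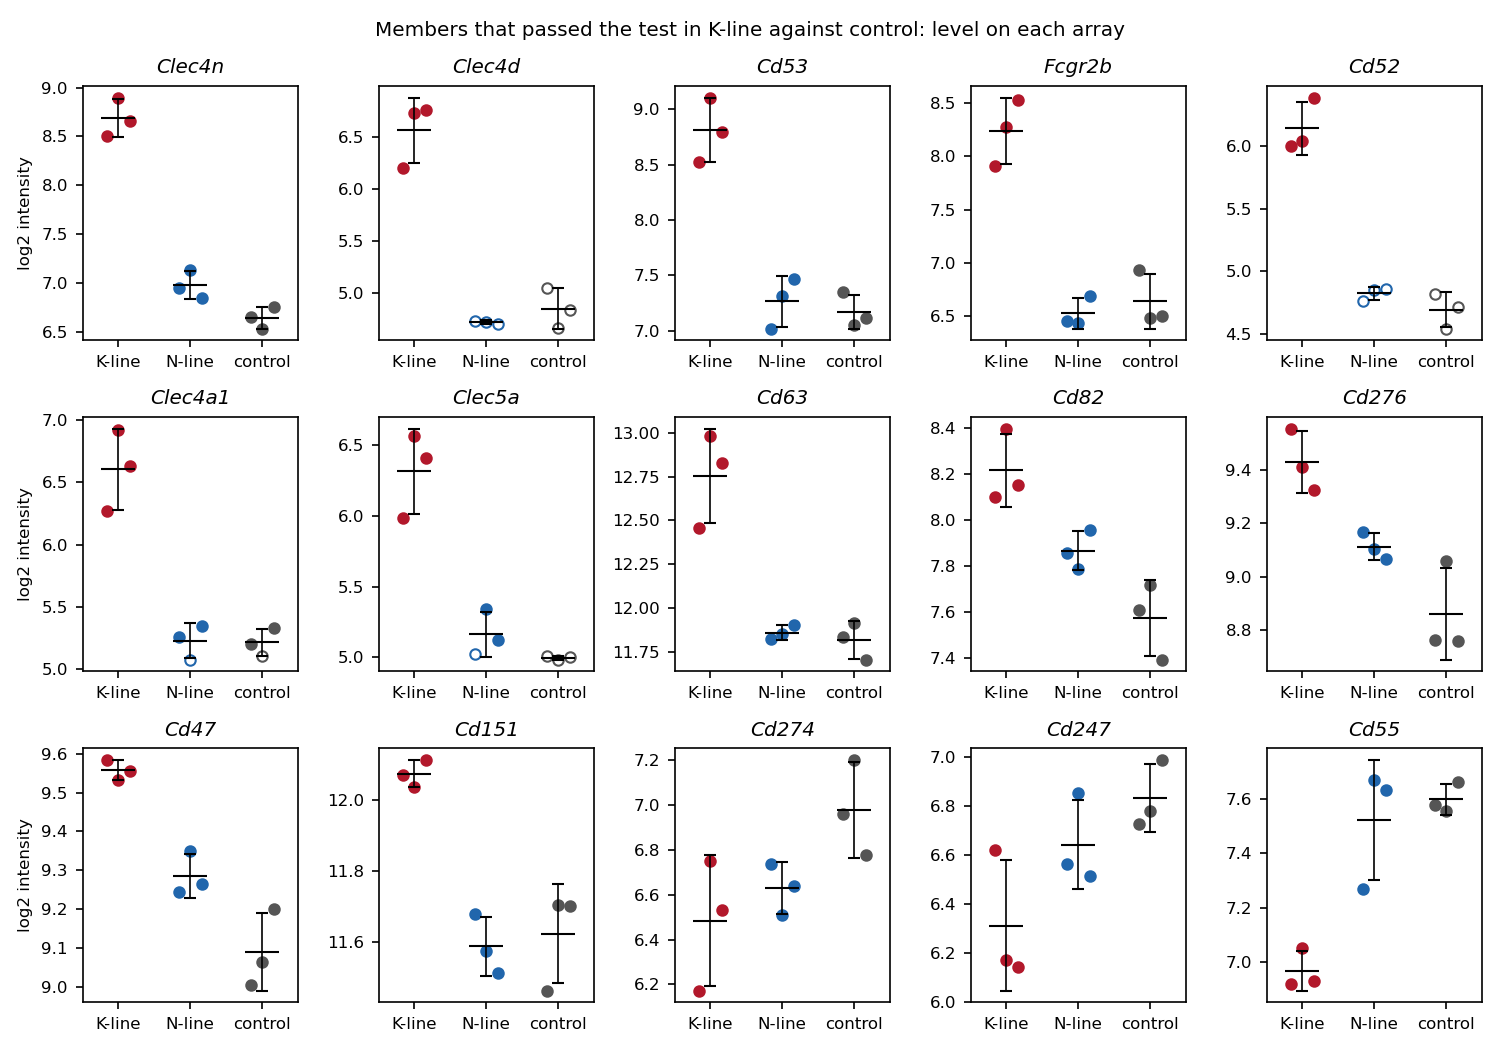
Log2 intensity of the 15 members that passed the test in K-line against control, on each array of K-line, N-line and control, with the mean and SD of 3 arrays and a separate axis per gene. Filled points were detected and open points were not. K-line lies above control with no overlap for 12 genes, from Clec4n (2.04) to Cd151 (0.45), and below it for Cd274, Cd247 and Cd55.

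Of the T and NK cell list 2 of 7 members were tested, and neither was called higher in K-line. Cd247, the zeta signalling chain of the T cell receptor and of natural killer receptors, had 6.62, 6.17 and 6.14 in K-line, against 6.56, 6.85 and 6.51 in N-line and 6.73, 6.78 and 6.99 in control. It fell by 0.52 against control (SE 0.15, adjusted p 0.0247), with no overlap. These values are from 1 probe, and the other probe of Cd247 was below background on all arrays. This call was lost when arrays were scaled by their median (-0.36), in the authors' value table (-0.24), when dim probes were kept, and without K-line 5, K-line 6, control 2 or control 3.

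Cd3e, another chain of the T cell receptor complex, had 5.42, 5.37 and 5.29 in K-line, against 5.29, 4.77 and 5.18 in N-line and 5.34, 5.43 and 5.14 in control. K-line and control overlapped, with a difference of 0.06 (95% interval -0.24 to 0.36). Cd8b1 was below background throughout, with 4.59, 4.53 and 4.65 in K-line and 4.49, 4.51 and 4.46 in control. Of 7 T and NK cell members 2 were thus tested, with 0 rises and 1 fall, against 12.0% and 12.4% of all tested probes. Il7r, a cytokine receptor of lymphocytes on the list of further T and NK cell markers, had a difference of 1.67 (at least 2.40-fold) and was called higher. It was detected on 3 K-line arrays and 0 others, so it entered the test only through K-line and, like Cd52 and Clec4d, had to differ. The other Il7r probe was detected on no array. Bcl11b (-0.29) and Satb1 (0.17) of that list did not pass.

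B cell members were few. Cd40, the costimulatory receptor of B cells and antigen-presenting cells, had 5.89, 5.87 and 5.62 in K-line, against 5.19, 5.50 and 5.07 in N-line and 5.50, 5.97 and 5.59 in control. It differed from control by 0.10 (95% interval -0.22 to 0.43). Cd180, a receptor related to Toll-like receptors on B cells and macrophages, had 5.54, 5.80 and 6.09 in K-line and 5.88, 6.16 and 6.15 in control, with a difference of -0.25 (95% interval -0.65 to 0.14). The B cell list also holds Fcgr2b, its only rise among 3 tested genes, against 12.0% of all tested probes. Antibody genes, outside the member list, were uneven within every group. Igkc had 6.46, 9.30 and 6.08 in K-line, 10.31, 6.63 and 7.41 in N-line and 5.86, 9.73 and 6.80 in control. Ighm was likewise highest on K-line 5, N-line 2 and control 2 of their groups, so 1 array per group carried most of the antibody signal.

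Members with broad or non-leukocyte expression had 5 rises and 2 falls among 15 tested, Cd82 and Cd47 included. Of all tested probes 12.0% rose and 12.4% fell, so the falls are near the share over all probes. Cd63, a tetraspanin of lysosomes and secretory granules, had 12.46, 12.98 and 12.83 in K-line, against 11.82, 11.86 and 11.91 in N-line and 11.84, 11.92 and 11.71 in control. It rose by 0.93 (SE 0.13, adjusted p 5.57e-04). Cd276, an immune-regulatory ligand of the B7 family, had 9.55, 9.41 and 9.33 in K-line, against 9.17, 9.10 and 9.07 in N-line and 8.76, 9.06 and 8.76 in control. Its rise was 0.57 (SE 0.11, adjusted p 0.00364), and all N-line arrays lay between the other groups.

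Cd151, a tetraspanin that binds laminin receptors and is made in muscle and endothelium, had 12.07, 12.04 and 12.11 in K-line, against 11.68, 11.57 and 11.51 in N-line and 11.46, 11.70 and 11.70 in control. The difference was 0.45 (SE 0.10, adjusted p 0.00732), and the other probe of Cd151 gave 0.50 (SE 0.09, adjusted p 0.00256). It was the only member with more than 1 tested probe, and its probes moved alike. Cd247, Cd40, Cd200r2 and Clec1a each had a further probe that was below background on all arrays.

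The falls of this list were in Cd55 and Cd274. Cd55, which speeds the decay of complement enzymes on the cell surface, had 6.92, 7.05 and 6.93 in K-line, against 7.27, 7.67 and 7.63 in N-line and 7.58, 7.56 and 7.66 in control. It fell by 0.63 (SE 0.11, adjusted p 0.00297), with K-line below every other array. Cd274, the ligand PD-L1 that dampens T cells, had 6.17, 6.75 and 6.53 in K-line, against 6.74, 6.51 and 6.64 in N-line and 6.96, 7.20 and 6.78 in control. It fell by 0.50 (SE 0.15, adjusted p 0.0380). Cd274 was no longer called when arrays were scaled by their median (-0.33), in the authors' value table (-0.21), when dim probes were kept, with N-line left out of the model, and without K-line 3, K-line 6, control 1 or control 2.

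The other broad members did not pass the test in K-line against control. They were the fatty acid translocase Cd36 (-0.08), the tetraspanin Cd81 (0.12), the complement inhibitor Cd59b (0.24), Cd200 (0.23), which binds an inhibitory myeloid receptor, and the endothelial lectin Clec1a (0.12). The brightest, Cd81, had 14.26, 14.41 and 14.08 in K-line and 14.14, 14.08 and 14.16 in control. Further ones were tetranectin, encoded by Clec3b (-0.20), the transcobalamin receptor Cd320 (-0.32) and the secreted growth factor Clec11a (-0.66, adjusted p 0.0709). Clec11a had 4.82, 5.91 and 5.37 in K-line, against 5.97, 6.22 and 6.26 in N-line and 5.89, 6.40 and 5.79 in control. Without K-line 5 it was called lower (-0.91). Cd200r2 (-0.13) and Clec4g (-0.15), on no list, did not pass either. Cd3eap (0.13), an RNA polymerase I subunit that only shares the name, did not pass. Probes of Cd59b and Cd55 may also bind the paralogs Cd59a and Cd55b.

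**Figure D3:**
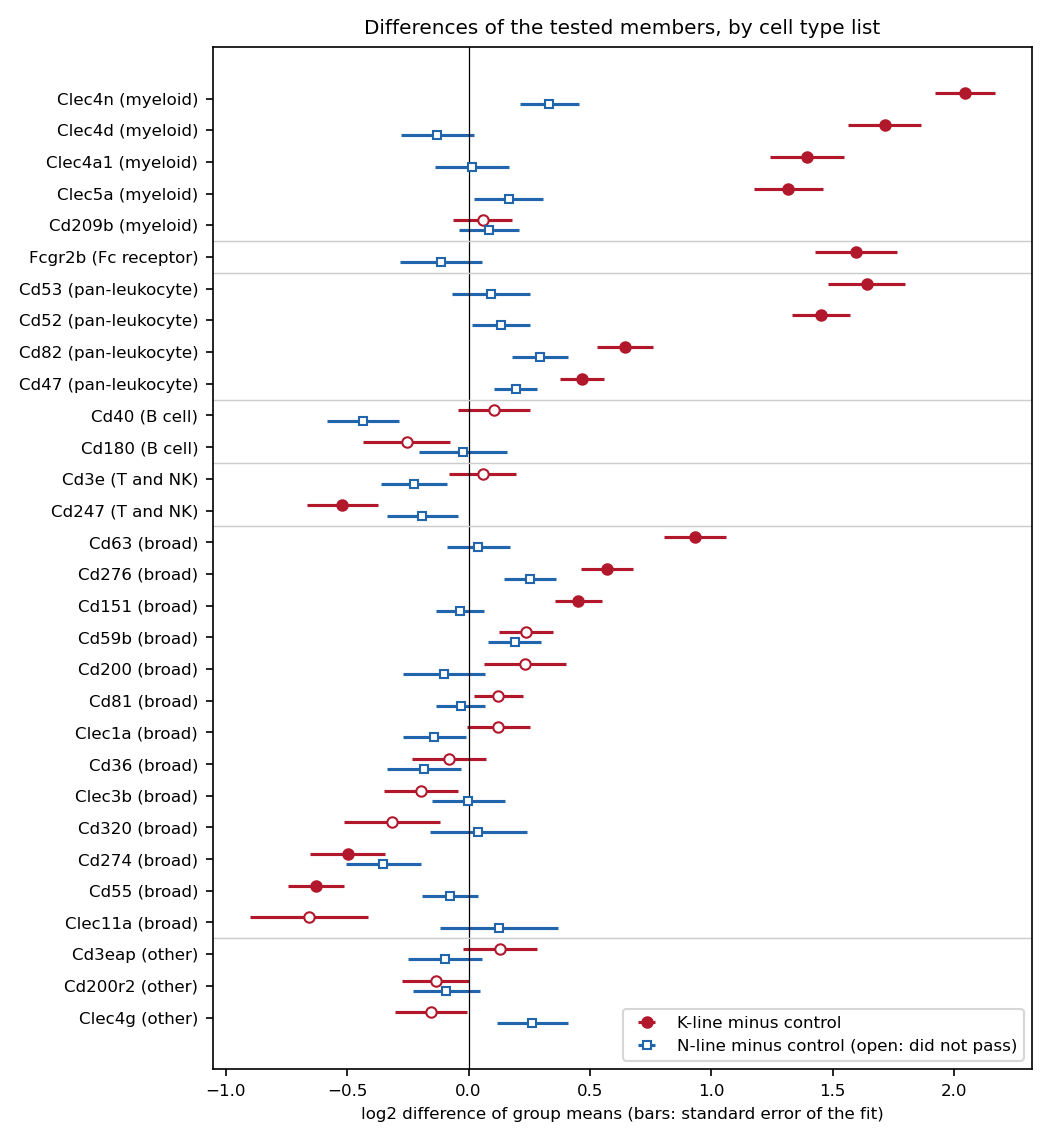
Log2 difference of group means for the 30 tested member genes, K-line minus control (circles) and N-line minus control (squares), with the SE of the fit and genes grouped by cell type list. Filled symbols passed the test. Clec4n, Clec4d, Clec4a1, Clec5a, Fcgr2b, Cd53 and Cd52 lie between 1.32 and 2.04 in K-line, and the remaining myeloid lectin Cd209b lies at 0.06, while no N-line difference passed, the highest being Clec4n at 0.33 and the lowest Cd40 at -0.43.

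Within K-line the arrays differed in level. K-line 3 was the lowest of the 3 K-line arrays for 9 of the 12 risen genes, and K-line 5 the highest for 6. Of macrophage markers outside the member list, chosen with results known, 7 of 7 tested rose, against 12.0% of all tested probes. These 7 markers include Cd68 and Fcgr3, which match the member names but were set aside. Their summed linear intensity was 4805 to 8516 in K-line, against 1846 to 1973 in N-line and 1768 to 1972 in control, and it too was lowest on K-line 3. For neutrophil markers 1 of 2 tested genes rose (Csf3r, 0.83), with sums of 103 to 138 in K-line, 73.7 to 101 in N-line and 74.4 to 88.6 in control. Csf3r was detected on 3 K-line, 1 N-line and 0 control arrays, so it needed K-line arrays to pass the filter. S100a9, the other tested gene, did not pass (0.30, adjusted p 0.391), and the other probes of Csf3r were detected on no array. The sum was highest on K-line 3, where S100a9 was highest (6.57) and Csf3r lowest (5.42) of the K-line arrays. The neutrophil granule genes Mpo and Elane were below background on all arrays. Ltf, on the same list, was detected on 1 N-line array, with mean log2 levels of 4.69 in K-line, 6.17 in N-line and 4.76 in control. Endothelial markers had 0 calls among 3, with sums of 4865 to 5931 in K-line and 5339 to 5974 in control. The part of these cell types in the members' differences was not tested.

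The proteins that carry the signal of these receptors were followed through a list of 40 partners, of which 8 were tested. In K-line against control 5 rose and 0 fell, while 12.0% of all tested probes rose and 12.4% fell. Fgr, a kinase of myeloid cells, had 5.99, 5.78 and 5.93 in K-line, against 4.67, 4.57 and 4.69 in control, at least 1.69-fold higher (difference 1.26, adjusted p 8.91e-06). Fgr was detected on 3 K-line arrays and 0 others, so it too entered the test only through K-line and had to differ. Ptprc, the leukocyte phosphatase CD45, had 5.94, 6.41 and 6.08 in K-line and 5.05, 4.76 and 4.93 in control, at least 1.99-fold higher. It was detected on 3 K-line, 2 N-line and 0 control arrays, so it also needed K-line arrays to pass the filter. The adaptors Lcp2 (1.04) and Hcst (0.73) rose, as did Malt1 (0.46), which acts below lectin receptors. Ptprc and Lcp2 each had another probe that was detected on no array. The other 3 did not pass and had differences below 0: the phosphatase Ptpn11 (-0.59, adjusted p 0.0592), the integrin chain Itgal (-0.26, adjusted p 0.0666) and the adaptor Sh2b3 (-0.22, adjusted p 0.104). The median of the 8 was 0.59. In K-line against N-line 4 partners rose and Itgal fell by 0.31 (adjusted p 0.0345). Of all tested probes 12.1% rose and 12.2% fell there. Syk, Lyn and Tyrobp were not analysed here.

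In N-line against control, 0 of 30 members passed by limma, against 0.929% of all tested probes. At an unadjusted p under 0.05 there were 6, or 20% of the members, against 11.8% of all tested probes. They were Cd40 (-0.43), Cd274 (-0.35), Clec4n (0.33), Cd82 (0.29), Cd276 (0.25) and Cd47 (0.20). The groups did not overlap for 7 of the 30 genes, 5 higher and 2 lower, and for 19.7% of all tested probes. The median difference was -0.01 (0.00 over all tested probes). For 4 of the genes with the largest K-line rises the N-line intervals lay below those rises. The 95% interval of N-line minus control was 0.06 to 0.60 for Clec4n, -0.46 to 0.20 for Clec4d, -0.48 to 0.26 for Fcgr2b and -0.26 to 0.45 for Cd53.

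K-line against N-line compares the active with the wild-type transgene and shares the K-line arrays with the comparison above. Here 12 genes rose and 2 fell, while 12.1% of all tested probes rose and 12.2% fell. Without Cd52 and Clec4d, 10 of 28 rose and 2 fell. Clec5a, which also needed K-line arrays to pass the filter, is among these 10. Of the 21 genes detected on all 9 arrays, 7 rose and 1 fell. Clec4d was higher by 1.84 (SE 0.15, adjusted p 1.95e-05), Clec4n by 1.71 (SE 0.12, adjusted p 8.34e-06), Fcgr2b by 1.71 (SE 0.17, adjusted p 6.97e-05) and Cd53 by 1.55 (SE 0.16, adjusted p 9.73e-05). Clec4a1 (1.38), Cd52 (1.32), Clec5a (1.15), Cd63 (0.89) and Cd151 (0.49) rose as well. These 9 genes were called under every alternative that tested them. By list, 4 myeloid genes, Clec4d included, and 4 antigens shared by most leukocytes, Cd52 included, rose. Of the B cell list 2 rose (Fcgr2b and Cd40), and of the T and NK cell list 0.

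Calls near the threshold in this comparison were less firm. Cd40 (0.54, adjusted p 0.0242), Cd82 (0.35, adjusted p 0.0487) and Cd47 (0.27, adjusted p 0.0462) rose, and Cd55 (-0.55, adjusted p 0.00599) and Clec11a (-0.78, adjusted p 0.0376) fell. Each of these 5 calls ended under at least 2 alternatives. Cd276 (0.32, adjusted p 0.0541) missed the threshold, as did Cd247 (-0.33, adjusted p 0.124) and Cd274 (-0.15, adjusted p 0.527). The difference of Cd274 between K-line and N-line had a 95% interval of -0.49 to 0.19.

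Scaling changed how the calls divided between higher and lower. In K-line against N-line it was 12 rises and 2 falls as reported, 13 and 0 with median scaling, and 17 and 0 with the authors' value table. In K-line against control it was 12 rises and 3 falls as reported, 12 and 1 with median scaling, and 15 and 1 with the authors' value table. The median difference over all tested probes was 0.09 with median scaling and 0.20 in that table in K-line against control, and 0.12 and 0.20 in K-line against N-line, so the values there are read relative to it. Over all tested probes the split in K-line against control was 2359 rises and 2436 falls as reported, 3030 and 1267 with median scaling, and 5974 and 1126 with that table. In K-line against control the rise of the 12 genes and the fall of Cd55 were called under each of these settings. In K-line against N-line the fall of Cd55 was not called with median scaling or that table.

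**Figure D4:**
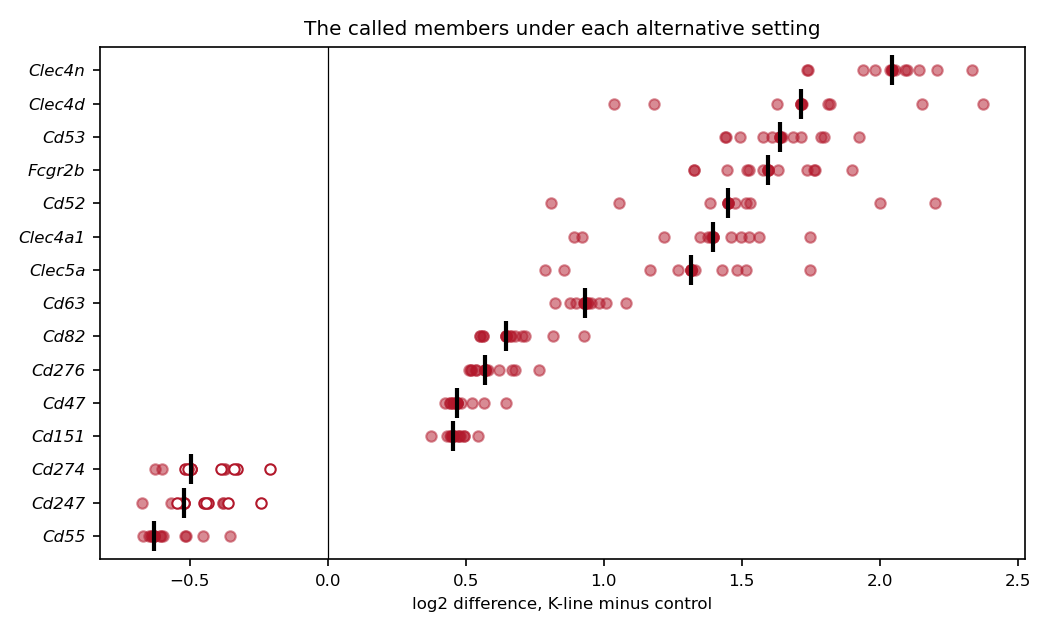
K-line minus control log2 difference of the 15 called members as reported (black bars) and under each alternative setting that could test them (circles, filled where called at an adjusted p under 0.05). The 12 risen genes and Cd55 were filled throughout, Cd247 and Cd274 were open in 7 and 8 alternatives, and no value crossed 0.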

How the data were processed

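Heart RNA was hybridised to 9 Illumina Mouse-6 v1.1 arrays. The deposited raw tables give a mean intensity over beads for each probe, written by BeadStudio 2.3.47 and not normalized, per the file headers. The deposited detection score is a fraction, and 1 minus it served as the detection p-value. The number of beads and the bead spread are also from the deposited tables. The authors' value table, an intensity on a linear scale with negative values, was used only as an alternative. How it was normalized is unknown.

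Intensities were background-corrected with normexp (limma 3.58.1, R 4.3.3), noise taken from the detection p-values, with an offset of 16, then quantile normalized over 9 arrays and taken to log2. Probes with a detection p under 0.05 on at least 3 arrays (19692) were fitted in 1 limma model with 3 group means, adjusted over all of them by Benjamini-Hochberg at 0.05. The fit was tested on simulated data. A fold bound divides the brighter group's mean by the dim group's mean of detection limits, where an array's limit is its lowest detected signal or the dim probe's own signal if that is higher. The bounds hold for the offset of 16 and are not lower limits under other settings. Where a gene had several tested probes the brightest was used.

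Names come from probe codes: 9796 of 11857 codes with 1 or 2 leading zeros (82.6%) match mouse NCBI gene numbers in RefSeq (GRCm38.p6), a reading inferred from these matches, since numbers moved by 1 to 20 matched in 46% or fewer. Transgene levels are left out. The members and lists were chosen with earlier results of these data known, so no set test was run. Named are all called members, all Fc receptors with a probe, the lineage-defining antigens and the brightest member of each list. Columns of other samples numbered 0. No pair of arrays shared more than 327 raw values. The number of arrays limits the precision. Alternatives covered background correction, scaling, the filter on dim probes, the model and leaving out each array.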

Additional observations from a re-analysis of the deposited data

How the results depend on the processing

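In K-line against control 13 of 15 calls held under every alternative that tested them, with Cd247 and Cd274 the exceptions. No called member changed sign under any alternative run. The number of calls was 13 to 16 over the other settings and 11 to 14 when 1 array was left out, the lowest without K-line 6. Cd52 and Clec4d are not tested once a K-line array is left out, since the filter asks for detection on 3 arrays. The median member difference was 0.30 with median scaling, 0.40 in the authors' value table and 0.24 with the stricter filter on dim probes (detection p under 0.01), and 0.05 to 0.20 with 1 array left out. In K-line against N-line 9 of 14 calls held. The count was 11 to 17 over the other settings and 9 to 12 with 1 array left out, with 9 without K-line 5 and 9 without K-line 6. The median there was 0.43 with median scaling and 0.50 in the authors' value table, and 0.11 to 0.28 with 1 array left out, the lowest without K-line 5. Quantile normalization of the authors' value table was chosen after seeing the data. In N-line against control the count was 0 throughout, and the median was -0.03 to 0.03 with 1 array left out. With the replicate number as a block it was 0 calls and a median of -0.01. Only 2 numbers are shared by N-line and control, and the deviations of these arrays from their group means correlated at 0.22 and 0.11. Unmatched numbers gave -0.27 and -0.06. Whether a shared number marks paired samples is not known. Fits with an array left out rest on fewer samples, and why calls were lost under any alternative was not tested. Members near background have signal too low for a firm fold.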
